A study of Mus musculus with 12 samples.

Results

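The HoxD cluster of the mouse holds 9 homeobox genes, Hoxd1, Hoxd3, Hoxd4, Hoxd8, Hoxd9, Hoxd10, Hoxd11, Hoxd12 and Hoxd13, on chromosome 2 between positions 74668310 and 74765142 of mm10 (GRCm38). The locus was taken as the cluster with 1 Mb on either side, chr2:73668310-75765142, and its members are all rows of the deposited peak lists whose summit, the highest point of a peak, lies there. The 12 lists held 706 such summits of 268431 in all. The cluster, the centromeric flank beyond Hoxd13 and the telomeric flank beyond Hoxd1 are described apart.

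Hox genes encode transcription factors that give cells their position along the body axis and the limb. In limb buds, the genes of the HoxD cluster are switched on in the order in which they lie on the chromosome. Enhancers in the telomeric gene desert are known for the early and proximal phase of expression, in particular of Hoxd8 to Hoxd11, and enhancers in the centromeric desert for the later expression of Hoxd13 and its neighbours in the digits. β-Catenin is the transcriptional partner that the canonical WNT pathway brings to TCF/LEF factors on DNA, and H3K27ac, the acetylation of lysine 27 of histone H3, marks active promoters and enhancers.

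The chromatin came from forelimb buds of wild-type Swiss Albino embryos, treated at E10.5 with the solvent DMSO (wild-type controls) or with C59 and dissected 6 h later. C59 inhibits porcupine, the enzyme that WNT ligands need for secretion, and the 2 conditions were compared to see where β-catenin binding and H3K27ac depend on WNT signaling. Each antibody and condition had 2 biological replicates, each made from pooled forelimb buds, and a consensus list made by the authors from both. The treatment reached the whole embryo through the mother, and in pooled tissue fewer cells with a mark and less of it per cell cannot be told apart. As a check of the tissue, H3K27ac lay within 1 kb of a transcription start site (TSS) of all 8 limb bud genes examined (Tbx5, Prrx1, Prrx2, Lhx2, Lhx9, Msx1, Hand2 and Hoxd13) and of 0 of the 4 genes of other tissues (Alb, Myh6, Neurod1 and the hindlimb gene Pitx1). Of all 21938 protein-coding genes, 52.2% had it in wild-type controls.

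Depth was read from the lists themselves. The fold enrichment of a summit, which is its coverage over the coverage expected there, and its p-value together give the number of fragments that cover it. The lowest expected coverage was 1.57 and 1.81 fragments in the β-catenin libraries of wild-type controls and 1.83 and 1.82 in those of C59-treated buds, and for H3K27ac it was 2.69 and 2.88 without C59 and 3.17 and 2.98 with it. At this background a β-catenin summit needed 8 fragments to be listed in a wild-type replicate but 11 in a C59 replicate. Where the local expected coverage was above background, more fragments were needed. A site that is not listed after C59 is therefore one that did not reach the limit at its own place. That limit can be above 11, and no lower bound of the site's coverage is known.

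The sequences below surround the strongest β-catenin summit of each part, a centromeric summit that holds the TCF/LEF core, and a pair of cores in the promoter of Hoxd8. They are shown so that the summits of highest fold in each part, with and without a core, can be set beside each other. All are the plus strand of GRCm38, 5′ to 3′. Capitals mark the core ATCAAAG or TTCAAAG on either strand.
Centromeric, chr2:74380949-74381148, between Atp5g3 and Lnpk: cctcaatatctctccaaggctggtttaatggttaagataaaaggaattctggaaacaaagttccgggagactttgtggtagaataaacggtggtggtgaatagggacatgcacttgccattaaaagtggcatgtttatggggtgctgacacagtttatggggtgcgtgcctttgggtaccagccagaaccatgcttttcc
Centromeric, chr2:74619399-74619598, between Lnpk and Evx2: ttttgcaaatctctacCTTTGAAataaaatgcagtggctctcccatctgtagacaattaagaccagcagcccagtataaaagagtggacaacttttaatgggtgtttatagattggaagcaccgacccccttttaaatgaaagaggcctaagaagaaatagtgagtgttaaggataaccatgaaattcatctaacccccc
Cluster, chr2:74760251-74760450, intron of Haglr near Hoxd1: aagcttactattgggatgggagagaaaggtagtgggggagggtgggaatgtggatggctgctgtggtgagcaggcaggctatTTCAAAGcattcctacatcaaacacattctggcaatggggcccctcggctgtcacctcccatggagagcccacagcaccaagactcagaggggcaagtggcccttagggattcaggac
Telomeric, chr2:74930789-74930988, between Mtx2 and Hnrnpa3: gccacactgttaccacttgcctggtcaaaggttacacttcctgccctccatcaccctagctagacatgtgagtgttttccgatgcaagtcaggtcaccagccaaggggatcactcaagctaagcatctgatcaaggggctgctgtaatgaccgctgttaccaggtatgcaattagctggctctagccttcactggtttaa
Hoxd8 promoter (RefSeq), chr2:74704432-74704508: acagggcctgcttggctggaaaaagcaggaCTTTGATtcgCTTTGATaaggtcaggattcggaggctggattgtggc

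In wild-type controls the HoxD locus was filled with β-catenin summits, and after C59 nearly all of them were gone from the lists. The wild-type consensus list held 79 summits in 65 peak regions, 24 on the centromeric side, 10 in the cluster and 45 on the telomeric side. The C59 consensus list held 1. Wild-type replicate 1 had 91 summits and replicate 2 had 115, against 3 and 2 in the C59 replicates, a mean of 103 ± 17.0 against 2.5 ± 0.707 (SD, n = 2 each). In the cluster the counts were 13 and 15 against 0 and 0, so the conditions lay far apart compared with the spread between replicates. With 2 lists a side the exact permutation test (two-sided) gave p = 0.33, below which 2 against 2 cannot go.

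The listing limit differed between the conditions, so it was also set equal. When only wild-type summits that also passed the stricter p-value limit of the C59 replicate lists (−log10 p of 5.72) were counted, 81 and 99 stayed in the window, of which 11 and 13 were in the cluster. Of the 79 consensus summits, 1 lay inside a C59 consensus peak (1.27%, 95% Wilson interval 0.224 to 6.83%), and the 1.12% of all 16193 wild-type summits on the assembled chromosomes lies within this interval. With a peak of either C59 replicate list counted, the share was 5.06%. The genome share by this wider rule was not computed, and the 1.12% is not its counterpart. The consensus lists had unequal limits as well (−log10 p of 3.69 without C59 and 8.92 with it), and 76 of the 79 summits also passed the latter.

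The locus ranked high by the number of its summits. In consecutive tiles of its length, 2.10 Mb, across the genome, the median was 11 β-catenin summits, and 1 of 1290 tiles held at least as many as the 79 of the HoxD window. That tile, with 88, lies on chromosome 14 and contains Kat6b and Zfp503, genes named here after the tile was found. For H3K27ac, 106 of the tiles reached the 63 summits of the window. This is a description of rank, without a test, and the tiles are not independent of each other. The window is centred on a chosen cluster, whereas the tiles follow a fixed grid that can split a dense locus. The HoxA window, centred in the same way, did not differ from HoxD in β-catenin summits beyond the spread of the replicates, as given below.

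**Figure D1:**
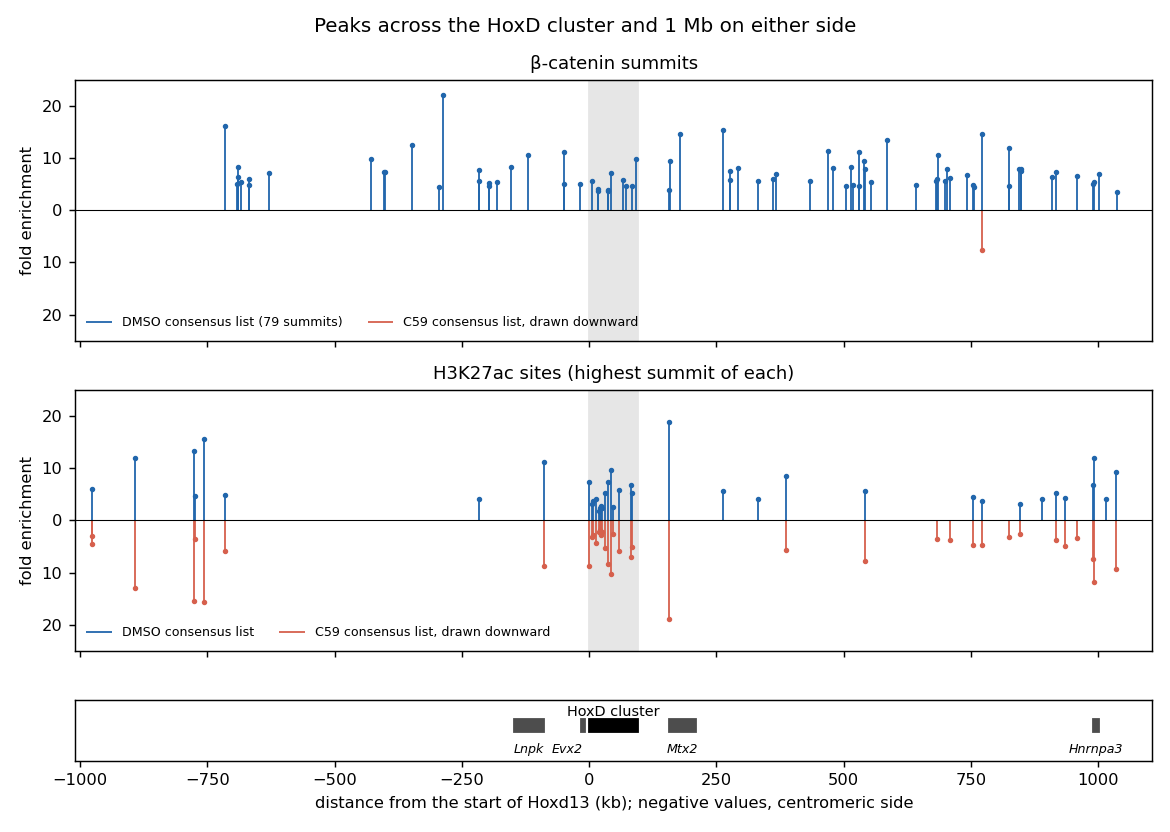
Fold enrichment of β-catenin summits (top) and H3K27ac sites (middle) against the distance from the start of Hoxd13 in kb, with wild-type consensus values upward in blue, C59 consensus values downward in red, the cluster shaded and 4 neighbouring genes below. The 79 wild-type β-catenin summits face 1 C59 summit, whereas most H3K27ac sites appear in both directions.

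The strongest β-catenin summit of the locus lay in the centromeric gene desert, 287 kb from Hoxd13, at position 74381049 between Atp5g3, a subunit of the mitochondrial ATP synthase, and Lnpk (lunapark), a protein of the endoplasmic reticulum. It had 108 and 133 fragments in the wild-type replicates, and a fold enrichment of 19.3 and 21.6. After C59, replicate 2 listed a summit of 21 fragments and a fold of 7.33 at position 74381066, and replicate 1 listed none. Both wild-type values were above the C59 value, which itself was above the limit of 11 at background.

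Other strong centromeric summits were at 73952685, near the far end of the desert, with 93 and 107 fragments in wild-type controls, and at 74321000, with 27 and 45. Neither was listed after C59. Closer to the cluster, the summit at 74619499, between Lnpk and Evx2, a homeobox gene that neighbours Hoxd13, had 40 and 53 fragments and carries the core printed above, 81 bases from the summit. The summit in an intron of Lnpk at 74548495 had 33 and 38 fragments in wild-type controls, and C59 replicate 1 alone still listed it at 74548472, with 16 fragments.

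On the telomeric side, the highest fold was at 74930889 in the desert between Mtx2, a metaxin of the outer mitochondrial membrane, and Hnrnpa3, an RNA-binding protein. It had 63 and 52 fragments in wild-type controls and was in no C59 list. An intron of Mtx2 held the next one, at 74847801, with 43 and 44 fragments. The summit at 75253021, in an intron of the long non-coding RNA 2600014E21Rik, had 35 and 38 fragments, and the one at 75492709 had 49 and 73.

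One site of the locus was listed in every β-catenin list, at 75440025 in an intron of the non-coding gene Gm13658, 675 kb from the cluster. It had 79 and 84 fragments in wild-type controls, which is 50.4 and 46.3 times the background of each library. After C59 it had 20 fragments in replicate 1 and 25 in replicate 2, or 10.9 and 13.7 times background. The conditions did not overlap, and the exact permutation test of 2 against 2 libraries cannot go below 0.33. A neighbouring summit at 75513010 with 37 and 57 fragments in wild-type controls was listed in C59 replicate 1, with 17 fragments at 75513031.

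**Figure D2:**
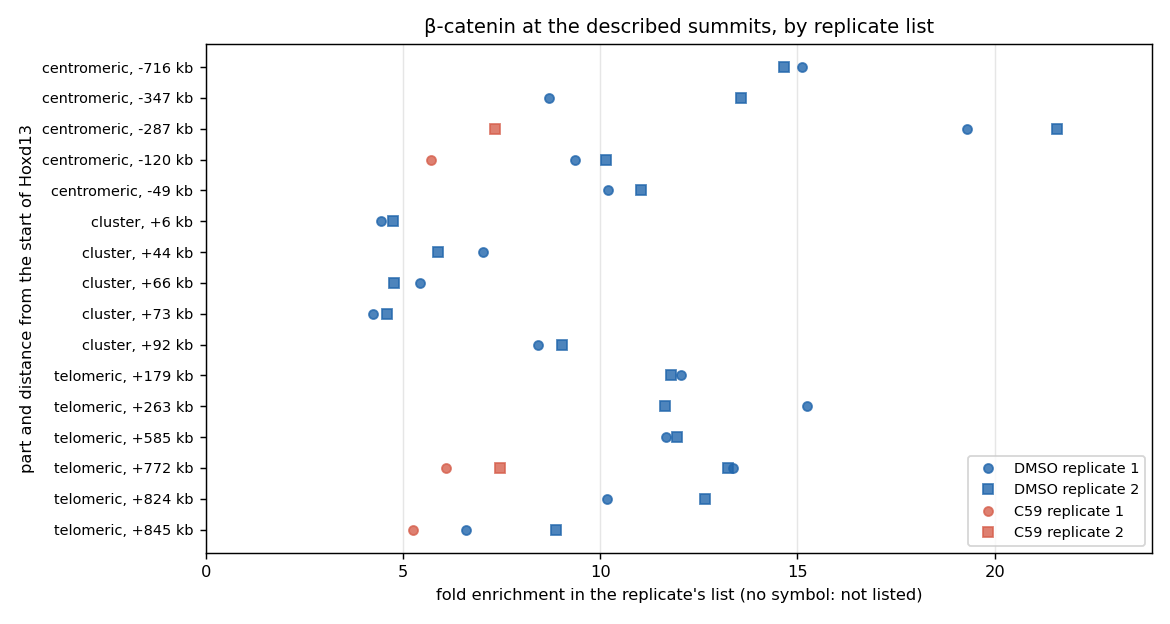
Fold enrichment (x axis) of β-catenin in each replicate list at the 5 strongest summits of each part and at every summit listed after C59, ordered from the centromeric to the telomeric end. C59 symbols (red) appear in 4 rows, and the cluster rows hold none.

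Inside the cluster the 10 wild-type summits were of lower fold, with a median of 4.66 against 6.76 on either flank, although their coverage was similar, with medians of 12.4, 13.5 and 13.4 times background in the cluster, the centromeric and the telomeric part. The local expected coverage, by which the fold is divided, was 2.22 times background in the cluster against 1.69 and 1.64 in the flanks. The strongest was at 74760351, in an intron of Haglr, a long non-coding RNA of the cluster, 2.63 kb from the start of Hoxd1, with 29 fragments in both wild-type replicates. Its sequence carries TTCAAAG 15 bases from the summit.

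The summit at 74711822 lies 105 bp from the first TSS of Hoxd3 and 107 bp from that of Hoxd4, in an intron of the antisense RNA Hoxd3os1, and had 32 fragments in either wild-type replicate. Hoxd8 (74704615 to 74707933), active in the early phase, held a pair of summits, at 74704773 in an intron and 74705949 in a coding exon, with 16 and 19 fragments for the former and 18 and 19 for the latter. The others lay 1.07 kb upstream of Hoxd12 (74673945, with 17 and 21 fragments), in an exon of Hoxd11 (74685392 and 74685703), in introns of Hoxd3 (74734673 and 74740832) and at the start of Haglr (74753196). No consensus summit came within 1 kb of a TSS of Hoxd1, Hoxd9, Hoxd10, Hoxd11, Hoxd12 or Hoxd13, the nearest being 5.64 kb away for Hoxd13 and 7.05 kb for Hoxd9.

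By gene, 3 of the 9 HoxD genes (Hoxd3, Hoxd4 and Hoxd8) had β-catenin less than 1 kb from a TSS in wild-type controls, with a single summit counted for both Hoxd3 and Hoxd4, and 0 had it after C59. In the other clusters this was so for 6 of 11 HoxA, 3 of 10 HoxB and 1 of 9 HoxC genes, again with 0 after C59 in each, and for 9.04% of all 21938 protein-coding genes in wild-type controls and 0.0775% after C59. Hoxd4 counts here through a GENCODE transcript that starts beside Hoxd3. The RefSeq promoter of Hoxd4 (74721728 to 74722027) is 10156 bp from the nearest β-catenin summit. Of the neighbours, Mtx2 and Hnrnpa3 each had 2 summits at the start, the former with folds of up to 9.36 and the latter of up to 5.39, and Evx2 and Lnpk had none. Nfe2l2, which encodes the stress response factor NRF2, had 1 of fold 3.47, shared with the divergent E030042O20Rik. The remaining genes with a summit at the start were the non-coding 2600014E21Rik and Gm13652 (1 shared summit of fold 11.3), Haglr, Gm14424, Hoxd3os1, Gm24574 and Gm37243.

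Over the locus, 11 of the 79 summits (13.9%, Wilson interval 7.96 to 23.2%) lay less than 1 kb from a TSS, against 16.3% of all wild-type summits. They were 4 of 10 in the cluster, 7 of 45 on the telomeric side and 0 of 24 on the centromeric side, which allows a share of up to 13.8%. The median distance to a TSS was 11.9 kb, and 15.2 kb over the genome.

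The window of 200 bp around the summit held a TCF/LEF core in 22 of 79 cases (27.8%, 19.2 to 38.6%), close to the 28.6% of all wild-type summits. Of the 15 summits of highest fold, 5 in each part, 2 held one, both printed above. No such share was computed for the strongest summits of the genome. The median fold of the 22 summits with a core was 5.87 and that of the 57 without was 6.39, whereas in the genome the medians were 7.62 and 6.43. The folds in the window overlapped, from 4.11 to 11.3 with a core and from 3.47 to 22.1 without, and the difference was not tested. The strongest telomeric summit has no such 7-base core but 1 copy of its inner 6 bases, TCAAAG. No match says only that these letters are not in the window.

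Cores of 4 other motifs were searched in the same windows on both strands. Their names are labels of the words searched, and binding by these factors was not measured. TAATTA, taken for the Lhx2 motif, was present at 10 summits (12.7%, against 14.8% of all summits) and CATAAA, for Hoxa11, at 23 (29.1%, against 23.3%). CAGCTG, taken for the BHLHA15 motif, was present at 11 (13.9%, against 18.8%) and AAACAG, for Prdm4, at 24 (30.4%, against 23.9%). All 4 genome shares lie inside the Wilson intervals of the locus.

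Among the promoters of the 9 genes in the RefSeq table, from 250 bases before to 50 after the start, Hoxd8 and Hoxd12 held the TCF/LEF core, 2 of 10 entries, against 8.65% of all 32851 promoters. Hoxd8 has a pair of ATCAAAG on the minus strand, separated by 3 bases and lying 136 bases before its start. The β-catenin summit in the intron of Hoxd8 is 295 bases from this pair.

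H3K27ac, in contrast to β-catenin, was listed in much the same places in both conditions, least so on the telomeric side. The wild-type replicates had 77 and 73 summits in the window, and the C59 replicates had 69 and 70, a mean of 75 ± 2.83 against 69.5 ± 0.707 (SD, n = 2). This difference of 5.5 reversed to -1.5 when peak regions were counted in place of summits, and the consensus lists held 63 each. The exact permutation test gave p = 0.33, its smallest value. By part, the means were 15 and 13 on the centromeric side, 28 and 25 in the cluster, and 32 and 31.5 on the telomeric side.

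In the cluster all 26 wild-type H3K27ac consensus summits fell within C59 peaks (Wilson interval 87.1 to 100%), and all 27 C59 summits fell within wild-type peaks. Over the window these shares were 56 of 63 (88.9%, 78.8 to 94.5%) and 54 of 63 (85.7%, 75.0 to 92.3%), against 89.1% and 90.9% in the genome. On the telomeric side they were lower, 20 of 25 (80%, 60.9 to 91.1%) and 17 of 25 (68%, 48.4 to 82.8%). The latter interval lies below the genome share, although summits of 1 region are not independent. On the centromeric side they were 10 of 12 and 10 of 11. H3K27ac covered 11.5 and 11.6 kb of the 96.8 kb of the cluster in the wild-type replicates, and 11.7 and 11.6 kb after C59 (exact permutation p = 0.67). These are 11.9 to 12.1% of the cluster, whereas 0.593 to 0.703% of the centromeric and 1.15 to 1.38% of the telomeric flank was covered.

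Of the 9 genes, 8 had an H3K27ac summit less than 1 kb from a TSS in both consensus lists, and Hoxd1 alone had none in any list. In the other clusters the numbers were 10 of 11 for HoxA, 6 of 10 for HoxB and 4 of 9 for HoxC, and of all protein-coding genes 52.2% had such a summit in wild-type controls and 51.2% after C59. Evx2, the neighbour of Hoxd13, had none either. Of the wild-type H3K27ac summits of the window, 35 of 63 lay less than 1 kb from a TSS (55.6%, 43.3 to 67.2%, against 66.1% in the genome), with 21 of 26 in the cluster, 8 of 12 on the centromeric and 6 of 25 on the telomeric side.

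The level of H3K27ac was compared at merged sites with a summit in all 4 replicate lists, 32 of the 44 sites of the window and 17219 of 21703 in the genome. Fragments at the highest summit of a site were scaled by the median ratio between libraries, and conditions were compared with limma across all 17219 sites, a test chosen after the lists had been seen. The fragments printed for single sites below are unscaled, whereas the changes and their errors come from the scaled values. The filter leaves out sites that were lost or gained altogether, so the sites that passed are not all sites. Of the 32 sites, 3 rose and 1 fell after C59 at a Benjamini-Hochberg adjusted p under 0.05, against 3.93% and 3.53% of the sites of the genome. Both C59 values were above both wild-type values at 10 of the 32 sites and below them at 7, against 25.3% and 25.2% in the genome. With libraries scaled by their genome-wide expected coverage the numbers were 6 and 11, against 2248 and 5963 of the 17219 sites of the genome. By fold enrichment they were 9 and 4, against 3594 and 3341.

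The site over Hoxd8 (74704625 to 74706668) rose. It had 197 and 218 fragments in the wild-type libraries and 309 and 261 after C59 (209 and 211 against 279 and 280 when scaled). The change was 0.41 ± 0.093 (log2 with its SE, limma adjusted p = 0.0019). The 2 conditions did not overlap, and both C59 libraries were higher. The neighbouring site at the start of Hoxd3 and Hoxd4 (74711632 to 74712614) had 197 and 218 against 276 and 244 fragments, and rose by 0.28 ± 0.095 (limma adjusted p = 0.049). This call did not hold with the replicate block (limma adjusted p = 0.053) or with any replicate left out (0.11 to 0.26).

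The coding exon of Hoxd12 (74675142 to 74675996) held the only site that fell, with 62 and 80 fragments in wild-type controls, against 45 and 50 after C59. Its change was -0.61 ± 0.18 (limma adjusted p = 0.024). The second Hoxd12 site, just upstream of the gene, had 51 and 54 against 50 and 46 fragments (-0.17 ± 0.19, limma adjusted p = 0.65), and Hoxd13, whose product is required for normal digits, had 61 and 74 against 64 and 63 (-0.12 ± 0.17, limma adjusted p = 0.73). At both of these the conditions either overlapped or differed by less than their error in coverage. By fold enrichment both sites were instead higher after C59 without overlap, by 0.18 and 0.23 (limma adjusted p = 0.74 and 0.64).

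Hoxd9, Hoxd10 and Hoxd11 had high levels in every library. Hoxd9, with 229 and 232 fragments in wild-type controls, against 252 and 250 after C59, differed by 0.083 ± 0.096 (limma adjusted p = 0.67). At the start of Hoxd11 the values were 158 and 153 against 189 and 147, and at the site before Hoxd10 they were 153 and 174 against 173 and 161. The site in a coding exon of Hoxd4 was the lowest of the cluster, with 21 and 25 against 30 and 21 fragments. At the start of Haglr, 54 and 59 stood against 79 and 72 (0.38 ± 0.17, limma adjusted p = 0.17), a difference without overlap that did not pass the test.

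**Figure D3:**
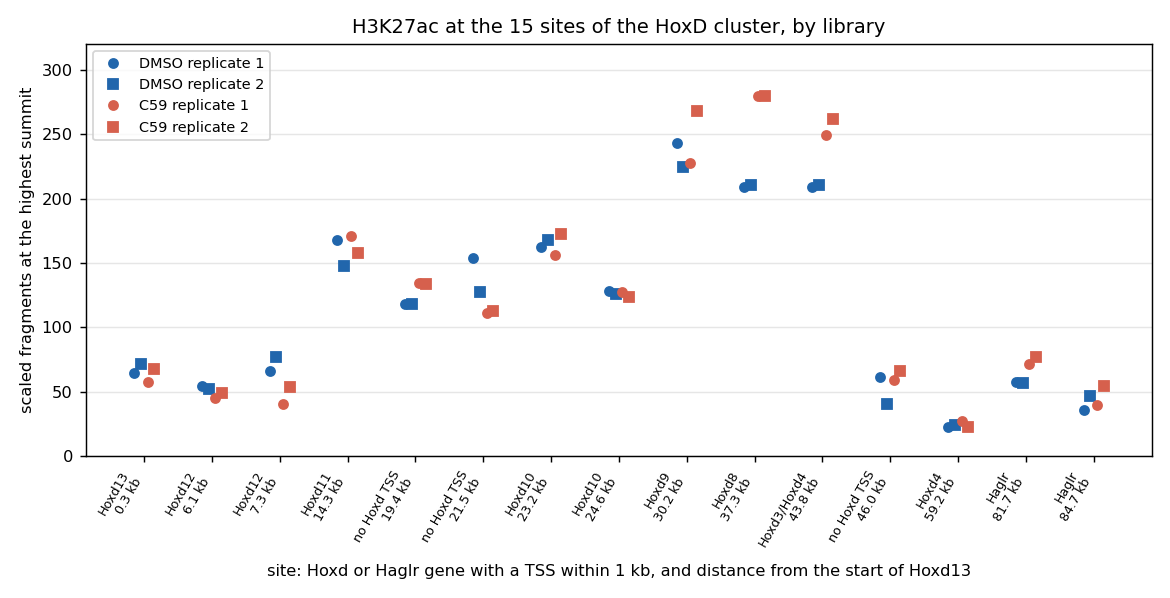
H3K27ac at the 15 sites of the cluster in the 4 libraries, as scaled fragments at the highest summit (y axis), ordered from Hoxd13 to Haglr (x axis). Both C59 symbols (red) lie above both wild-type symbols (blue) at 4 sites, Hoxd8 and Hoxd3/Hoxd4 among them, and below them at 3, the coding exon of Hoxd12 among them. With libraries scaled by their genome-wide expected coverage, not drawn here, the numbers were 3 and 6.

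These calls depend on the scaling and on the spread assumed. The same 3 rises and the fall kept their direction under each of the 4 scalings, but none of the 3 rises passed when libraries were scaled by their genome-wide expected coverage, which moves the median of all sites to -0.10, or when fold enrichment was used in place of coverage. Without either wild-type replicate no site of the window passed, without C59 replicate 1 only Hoxd8 did and without C59 replicate 2 only Hoxd8 and Hoxd12 did, so the call in 2600014E21Rik described next rested on each of the libraries. None passed by fold enrichment, nor when the spread was not let to vary with coverage, where 0 sites of the genome passed and 1375 rises and 1573 falls had an unadjusted p under 0.05.

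On the telomeric side, the site in an intron of 2600014E21Rik (75208741 to 75210189), which holds 2 β-catenin summits, had 35 and 36 fragments in wild-type controls, against 69 and 46 after C59, and rose by 0.63 ± 0.20 (limma adjusted p = 0.041). The site next to the retained β-catenin summit in Gm13658 (75438878 to 75439762) had 20 and 17 against 40 and 25 (0.74 ± 0.25, limma adjusted p = 0.057). Mtx2, with the highest fold of the flanks, had 184 and 230 against 237 and 189 fragments (0.00055 ± 0.10), and Hnrnpa3, with the highest coverage, 574 and 617 against 703 and 578. The start of Nfe2l2 had 202 and 226 against 272 and 247 (0.24 ± 0.095, limma adjusted p = 0.11), and the distal site at 75054602 to 75055340 had 31 and 24 against 29 and 19.

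On the centromeric side H3K27ac was mostly at promoters. The start of Atp5g3 had 187 and 192 fragments in wild-type controls, against 189 and 171 after C59, and that of Atf2, a CREB family transcription factor, 197 and 228 against 276 and 220. Chn1, a regulator of Rac GTPases, had 133 and 187 against 172 and 149. Lnpk had 56 and 82 against 62 and 40 (-0.48 ± 0.18, limma adjusted p = 0.091). None of the 7 centromeric sites tested passed, and their median change was -0.12, against 0.083 in the cluster and 0.13 on the telomeric side. These medians depend on the scaling. They were -0.22, -0.019 and 0.031 by genome-wide expected coverage, and -0.013, 0.073 and 0.023 by fold enrichment.

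**Figure D4:**
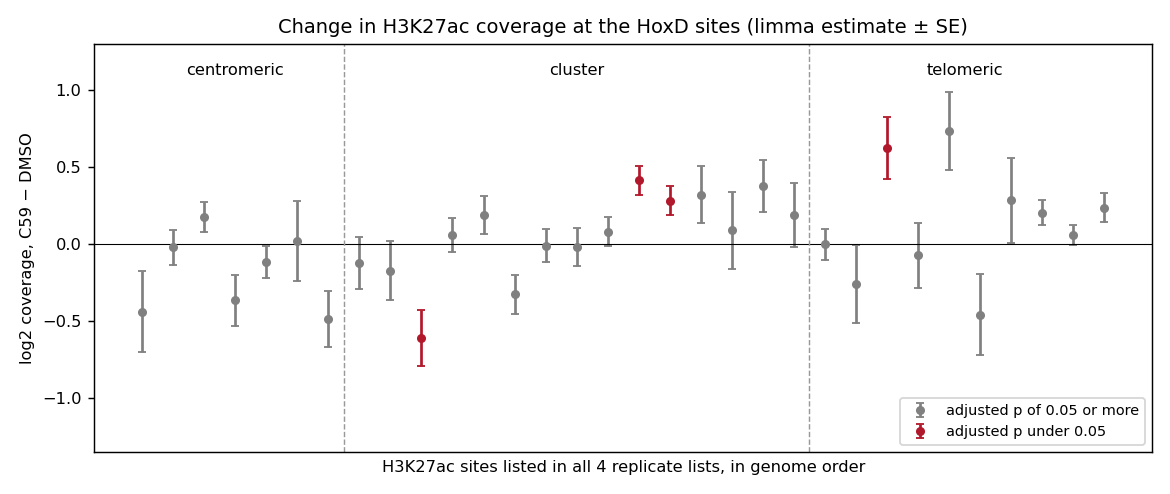
Change in H3K27ac coverage after C59 (log2, y axis, limma estimate with its SE as bars) at the 32 sites of the locus listed in all 4 replicate lists, in genome order (x axis). The 4 sites in dark red had an adjusted p under 0.05, 3 of them in the cluster and 1 on the telomeric side.

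The sites listed in 1 consensus list only were all in the flanks. There were 6 for wild-type controls and 6 for C59 among the 44 sites (11.9% and 9.46% in the genome), and 0 of 15 in the cluster. Most were telomeric, with 5 and 5 of the 20 sites there, against 1 and 1 of the 9 centromeric sites. Listed in both replicates of one condition and in neither of the other were 2 sites for wild-type controls and 4 for C59, against 4.46% and 3.23% in the genome. The 2 wild-type sites, at 75000454 to 75000789 and in an intron of Nfe2l2 at 75683120 to 75683482, had 14 or 15 fragments, and the 4 C59 sites had 12 to 25, in libraries where 10 or 11 at background were enough. The site at 75492358 to 75492756, with 23 and 21 fragments after C59, surrounds the β-catenin summit at 75492709, and the one at 75515168 to 75516319, with 25 and 25, contains the summits at 75515966 and 75516209.

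Most β-catenin summits of the locus were outside H3K27ac peaks. Of the 79, 16 (20.3%, 12.9 to 30.4%) lay inside a wild-type H3K27ac peak and 17 (21.5%, 13.9 to 31.8%) inside one of C59-treated buds, against 22.1% and 23% in the genome. The share was 4 of 10 in the cluster, 10 of 45 on the telomeric and 2 of 24 on the centromeric side. The whole centromeric side held 24 β-catenin and 12 H3K27ac summits in wild-type controls, and 11 H3K27ac summits after C59. From 100 to 700 kb there were 20 β-catenin summits in wild-type controls, but only 2 H3K27ac summits in wild-type controls and 0 after C59. This range was not planned in advance, and stretches with H3K27ac border it on both sides. The pair of H3K27ac summits belongs to 1 site, at 74451260 to 74451831, with 14 and 15 fragments in wild-type controls and 12 in C59 replicate 1. This site overlaps 2 β-catenin summits. Just beyond this range, 716 kb from Hoxd13 in the same desert, the H3K27ac site at 73952051 to 73952908 was in both consensus lists. It had 21 and 22 fragments in wild-type controls, against 21 and 24 after C59, and overlaps the β-catenin peak with its summit at 73952685. Seen from the other side, 16 of the 63 wild-type H3K27ac summits lay inside a β-catenin peak (25.4%, 16.3 to 37.3%), an interval that lies above the 11.2% of the genome, although summits of 1 region are not independent of each other. By part these were 10 of 25 on the telomeric side, 3 of 12 on the centromeric side and 3 of 26 (11.5%) in the cluster. Of the H3K27ac sites away from a TSS, 10 of 16 on the telomeric side, 2 of 4 on the centromeric side and 0 of 3 in the cluster overlapped a β-catenin peak, against 34.8% in the genome.

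The annotation of RefSeq names 1 tested enhancer with limb activity in the locus, the VISTA element mm515 (75422202 to 75424576) between Mtx2 and Hnrnpa3. It holds 2 wild-type β-catenin summits, at 75422944 with 25 and 33 fragments and at 75424188 with 21 and 31, and no C59 summit. Of the 174 VISTA elements with limb activity in this annotation, 76.4% held a wild-type summit. Its H3K27ac site had 37 and 45 fragments in wild-type controls, against 42 and 38 after C59, which overlap (-0.071 ± 0.21, limma adjusted p = 0.89).

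Among the 4 Hox clusters, each taken with 1 Mb on either side, HoxD had the most β-catenin summits and the fewest H3K27ac summits in wild-type controls. The consensus lists held 79 β-catenin summits for HoxD, 68 for HoxA, 28 for HoxB and 27 for HoxC. The replicates gave 91 and 115 for HoxD and a mean of 89 ± 4.24 for HoxA, so that the 2 neighbours in this order do not differ beyond their spread, whereas HoxB (47 ± 19.8) and HoxC (43.5 ± 4.95) lay below both. For H3K27ac the means were 75 ± 2.83 for HoxD, 91 ± 9.90 for HoxA, 103.5 ± 4.95 for HoxB and 115.5 ± 0.707 for HoxC (SD, n = 2). After C59 the β-catenin means were 2.5, 2, 0.5 and 0 for HoxD, HoxA, HoxB and HoxC.

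**Figure D5:**
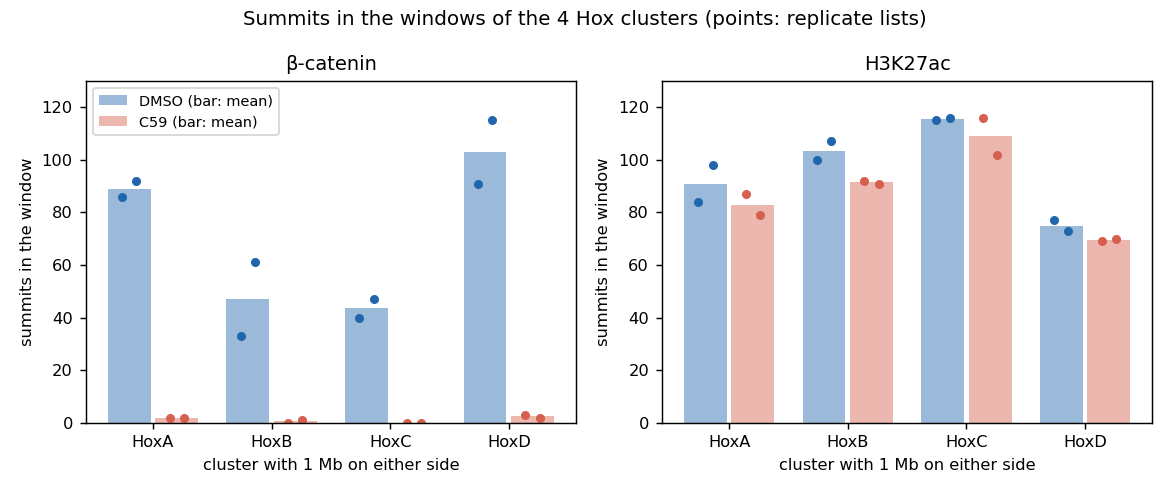
Number of β-catenin (left) and H3K27ac (right) summits in the windows of the 4 Hox clusters, with replicate lists as points and their mean as bars, for wild-type controls (blue) and C59-treated buds (red). β-Catenin summits nearly vanish from the lists in each window after C59, and H3K27ac counts change little beside them.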

How the data were processed

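β-Catenin and H3K27ac ChIP-seq peaks of forelimb buds were analysed, with 2 replicates per antibody and condition; peaks of the 4 input samples were not analysed here. According to the submitters' processing notes and the methods, the authors trimmed reads with cutadapt 4.1 (another version is given in the methods), mapped them to mm10 with Bowtie2 2.4.5, filtered alignments by mapping quality with SAMtools and called peaks with MACS2 2.2.7.1 on paired fragments without input. Consensus lists came from both replicates called together after Picard 2.27.4 had removed duplicates, with summits kept where both replicates had a peak. The deposited lists give the fold enrichment, a ratio of observed to expected coverage, and the −log10 of the p-value and q-value of each summit. The deposited score column was not used for results.

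Fold and p were solved for the fragments covering a summit, where the nearest whole number gave back the −log10 p to within 0.01 for all rows of 10 lists and for 99.6% and nearly all rows of the remaining lists. TSSs came from GENCODE M21, sequences from GRCm38 (0 peaks passed a chromosome end). Counts were compared by exact permutation tests over replicate lists (two-sided), H3K27ac coverage by limma 3.58.1 with an intensity trend and Benjamini-Hochberg adjustment across all sites, in R 4.3.3; shares carry Wilson intervals at 95% for counting error only. Calculations used Python 3.11.15, scipy 1.17.1, pysam 0.24.0 and samtools 1.23.1, and the depth calculation, overlaps, motif search, exact tests and limma fit were checked on drawn data with known answers.

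The members and lists were chosen with earlier results of these data known. Genes named are the 9 HoxD genes, Evx2, Lnpk, Mtx2, Hnrnpa3, genes of the window with a wild-type β-catenin summit less than 1 kb from a TSS, and genes around the summits described. Those are the 5 strongest β-catenin summits of each part, each C59 β-catenin summit, H3K27ac regions of the cluster found in 1 condition, and the 5 strongest wild-type H3K27ac summits of each flank. H3K27ac sites called by limma were named after their values were seen. Alternatives were a stricter q-value or fold, regions for summits, other windows, limits and scalings, and each replicate left out.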

Additional observations from a re-analysis of the deposited data

How the results depend on the processing

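With 2 replicates a group no exact test of counts can pass 0.05, and depth sets which summits are listed at all. The β-catenin difference of 100.5 summits kept its direction under every alternative. It was 66.5 with a −log10 q of at least 5, 52 with a fold of at least 5, 58.5 with 500 kb on either side, 87.5 at the p-value limit of the C59 replicate lists (an alternative chosen after seeing the data) and from 88.5 to 112.5 when a replicate was left out.

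The difference in H3K27ac summits kept its direction on the centromeric side but not in the window, the cluster or the telomeric side. For the window (5.5) it was -1.5 for regions, 1.5 at a fold of at least 5, 0 between consensus lists and from 3.5 to 7.5 without a replicate. On the centromeric side (2) it was 0.5 for regions and 1 between consensus lists. In the cluster (3) it was -0.5 for regions and -1 with the q limit, the fold limit or the consensus lists. On the telomeric side (0.5) it was -1.5 for regions, 2.5 with the q limit, 1 with the fold limit, 0 between consensus lists and from -0.5 to 1.5 without a replicate, where leaving out wild-type replicate 1 reversed it. The covered bases of the cluster (-57.5) were -215 with the q limit, 93 when the cluster was extended to Evx2 and from -118.5 to 3.5 without a replicate, the last value without C59 replicate 1. The cause of these changes was not tested.

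The 5 shares of the window given alternatives (wild-type summits inside C59 peaks for both antibodies, β-catenin inside H3K27ac peaks, near a TSS and with a TCF/LEF core) stayed inside their Wilson intervals, and the other shares were not varied. Of the limma sites in the window, chosen after seeing the data, 3 rose as reported, 6 with libraries scaled to the same median coverage, 0 by expected coverage, by fold enrichment or without the coverage trend, and from 0 to 1 without a replicate. For the 1 that fell, the count was 0 by fold enrichment, 0 without the coverage trend and from 0 to 1 without a replicate, while expected coverage and equal medians kept it. Without C59 replicate 1 or 2 the fall was 0 and 1 and the rises were 1 and 1.

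Replicate numbers did not pair the libraries: over 17219 H3K27ac sites the deviations of same-numbered libraries correlated at -0.00068. With the replicate block the β-catenin difference was 100.5 (exact sign-flip p = 0.5, the smallest it allows), that of H3K27ac summits 5.5 in the window, 2, 3 and 0.5 in the 3 parts and that of covered bases -57.5, and limma gave 2 sites that rose and 1 that fell, the site of Hoxd3 and Hoxd4 (adjusted p = 0.053) being the one lost.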
